A study of Maylandia zebra with 2 samples.

Results

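Cluster 2 is the largest group of nuclei that the authors named Immune in the oral lamina of the cichlid fish *Maylandia zebra*. Its members were taken from the deposited annotation, as every kept nucleus with cluster number 2. They numbered 181 of 1296 kept nuclei, from 1381 barcodes in all, a share of 13.97% (95% Clopper-Pearson interval 12.1–15.97). Cluster 2 made up 68.0% (62.1–73.6) of the 266 Immune nuclei, beside clusters 8 and 9 of the same name. Several of the markers and leading genes below are known from lymphocytes, so the nuclei are called lymphocyte-like.

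Lymphocytes are the white blood cells that recognise single antigens. T cells read an antigen through the T cell receptor, whose signal runs from the kinases *lck* and *zap70* through adaptor proteins to protein kinase C theta, calcium and NF-kB. B cells carry an antibody as their receptor and need the factors *pax5* and *ebf1*. In bony fish, both kinds of lymphocyte lie scattered in and under the epithelium of skin, gills and mouth. Gene roles given here are known from mammals or zebrafish and are background to the counts.

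The study used the sheet of soft tissue beside the replacement teeth of this Lake Malawi fish. Nuclei were freed, stained with the DNA dye DAPI and sorted, and 20668 were collected from the upper jaw and 20181 from the lower jaw, with 1 library for each jaw. The labels name the jaw and the tissue and no treatment, and they give no strain, age or number of fish. The matrix holds both jaws as 1 pooled sample, with barcodes of suffix 1 and suffix 2 that no source maps to a jaw, so no test between conditions could be made.

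Cluster 2 held 167586 UMIs, the molecular tags that count each RNA once, with a median of 744 per nucleus and a range of 381 to 4010. The other 1115 kept nuclei held 1255454 UMIs with a median of 854. Levels are UMIs summed over a cluster and scaled to a common total (CPM), and a fold is a ratio of such levels. Intervals are exact, at 95%, and cover counting error only. A floor of 3 UMIs equals 17.9 CPM in cluster 2 and 2.39 CPM in the other nuclei. Clusters were built from these same counts, so a high fold of a leading gene describes the cluster's identity and is no test of it. Of 12230 features with at least 10 UMIs, 15.7% stood 2-fold or more above the other nuclei in cluster 2 and 20.3% 2-fold or more below, with a median log2 fold of −0.03. These counts add a prior of 0.5 UMI to each sum; with a prior of 2 UMIs the split turned, to 22.7% higher and 6.30% lower. The first pair of shares is the background for each list set against all other nuclei. In pooled tissue of this kind, the number of nuclei recovered also reflects sorting and lysis.

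All 5 genes given as markers were high in cluster 2 and low in the epithelium. The clusters most like it differed less. The summed ratio was 2.90 (2.31–3.67) against cluster 5, where 4 of 5 markers passed 2-fold. It was 4.15 (3.04–5.81) against cluster 8 and 1.96 (1.37–2.90) against cluster 9. Gene folds below are against all other nuclei. *prkcq* codes for protein kinase C theta, which relays the T cell receptor signal. It reached 453 CPM in cluster 2 from 76 UMIs and 28.7 CPM in all other nuclei from 36 UMIs, a 15.8-fold difference (10.5–24.2). *ppp1r16b*, a regulatory subunit of protein phosphatase 1, stood at 901 against 82.0 CPM, 11.0-fold higher (8.49–14.2). *jak3* is the kinase of the shared cytokine receptor chain of lymphocytes and was 9.25-fold higher (6.64–12.9). *skap1*, an adaptor that links the T cell receptor to integrins, was 8.97-fold higher (6.54–12.3). *BCL11B*, a factor that commits cells to the T lineage in mammals, was 8.30-fold higher (5.99–11.5). Each marker was also at least 5.85-fold higher within each suffix set. The markers were given with the cluster, which holds both sets, so this is no test of agreement.

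Single nuclei carried these markers sparsely. Of the 181 nuclei, 32 had a UMI of none of the 5, 50 of 1, 56 of 2, 28 of 3, 14 of 4 and 1 of all 5. The share with any marker was 82.3% (76.0–87.6), against 9.90% (7.93–12.2) in the Epithelial class, which should lack them and had a median of 840.5 UMIs. Since depth sets such shares, nuclei were also thinned to 500 UMIs. The share was then 59.3% (51.02–67.3) of 150 nuclei in cluster 2, with 31 shallower nuclei left out, and 3.89% (2.58–5.61) of 694 nuclei in the Epithelial class, with 114 left out. It was 34.6% (24.3–46.0) in cluster 5 and 32.0% (14.9–53.5) in cluster 9, which kept 25 nuclei, and in cluster 8 it held 12 of 48 nuclei (13.6–39.6%). By single gene and without thinning, *ppp1r16b* had a UMI in 44.2% of the nuclei of cluster 2 and 3.09% of epithelial nuclei. The rarest of the 5, *prkcq*, had one in 25.4% and 0.866%.

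**Figure D1:**
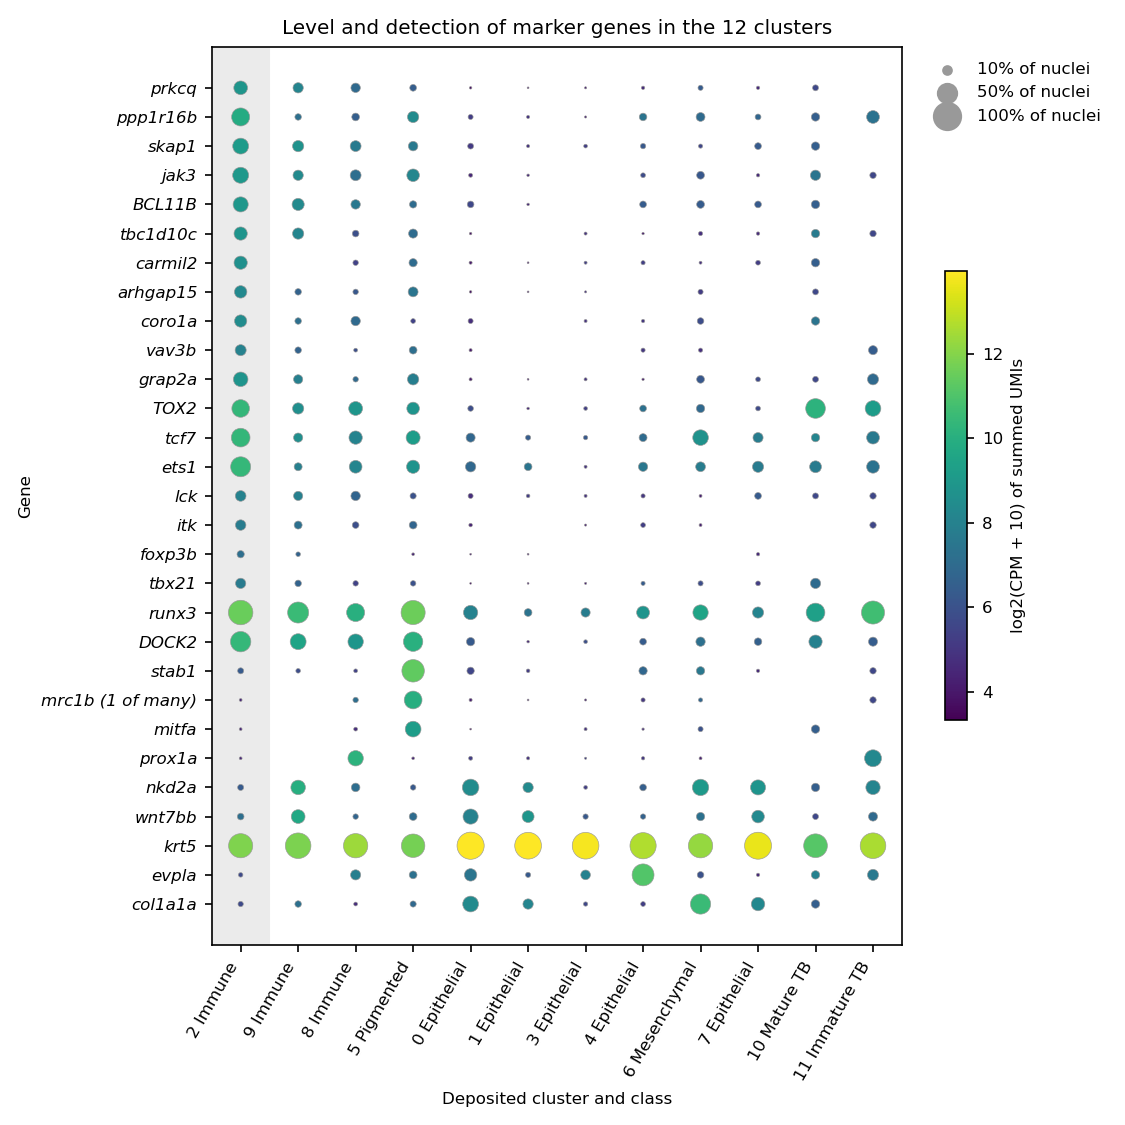
Level and detection of 29 genes (rows) in the 12 deposited clusters (columns, with class names; TB is taste bud). Dot area is the percent of nuclei with a UMI and colour is log2(CPM + 10) of summed UMIs; the 5 markers at the top have their largest dots in cluster 2, while *stab1* and *mitfa* peak in cluster 5 and *prox1a* in clusters 8 and 11.

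Several of the genes with the highest folds are known from lymphocyte signalling or the actin skeleton. Folds were ranked among 749 symbols that had 30 UMIs or more in the cluster and were detected in 15% or more of its nuclei. Of the 20 highest features with or without a symbol, 11 had none and are not described. *tbc1d10c*, an inhibitor of Ras and calcineurin signalling in T cells, led with 448 against 27.1 CPM, 16.5-fold higher (10.9–25.6). *carmil2*, needed for CD28 costimulation in human T cells, was 15.7-fold higher (10.0–25.2). *arhgap15*, which restrains Rac, was 13.0-fold higher (8.13–21.1), and *coro1a*, the actin-binding coronin of white blood cells, 11.99-fold higher (7.72–18.8). The exchange factor gene *vav3b* stood at 11.4-fold (6.83–19.2). *grap2a*, an adaptor of the receptor signal, was 10.6-fold higher (7.36–15.4) and *sh3bp2*, a binding partner of immune tyrosine kinases, 8.97-fold (6.29–12.8).

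Others of the top 20 are less tied to lymphocytes. *znf536*, a zinc finger gene studied mostly in neurons, was 12.2-fold higher (7.61–19.97) and *slc6a9*, a glycine transporter gene, 9.91-fold higher (7.10–13.9). *slc4a11*, a membrane transporter gene, was 8.88-fold higher (6.91–11.4) and had a UMI in 81 nuclei. The feature *PRKD3* (1 of many), ENSMZEG00005013100, a protein kinase D gene, was 10.8-fold higher (8.40–14.04). Its near namesake *prkd3* was 1.22-fold higher from 19 UMIs, and reads may be shared between such copies. *agap2*, *sh2d3ca*, *pald1a*, *cyth1b* and *TOX2* lay between 8.99-fold and 10.8-fold.

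Most list members of the T cell receptor pathway were high in cluster 2. The list had 35 symbols, of which 18 were matched by 21 features, and 18 features were measured, that is, had at least 10 UMIs. At least 2-fold higher were 15 of 18, against the background of 15.7%, and 0 were 2-fold lower, with a median log2 fold of 2.66 against −0.03 over all features. The summed level was 5203 CPM in cluster 2 and 918 CPM in other nuclei, a ratio of 5.67 (5.19–6.20). The receptor's own chains and co-receptors, such as *cd3e*, *cd3d*, *cd4*, *cd8a* and *cd28*, were not matched by symbol and are not analysed here.

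The kinases and adaptors of the pathway had few UMIs each. *lck*, the kinase that starts the signal, had 41 UMIs in 28 nuclei, as many as the 41 UMIs of all other nuclei, a 7.49-fold difference (4.74–11.8). *zap70*, the kinase recruited next, had 15 against 16 UMIs (7.02-fold, 3.23–15.2). *itk*, the Tec kinase of T cells, was 9.43-fold higher (5.52–16.3). *FYN* (1 of many), a relative of *lck*, was 6.66-fold higher (5.51–8.03) and had a UMI in 53.6% of the nuclei. *sh2d1ab*, an adaptor of SLAM receptors in T and NK cells, reached 23.1-fold (11.8–48.7) from 37 against 12 UMIs. Its 37 UMIs lay in 24 nuclei.

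Other members lay at lower folds. *VAV1*, an exchange factor for Rac, was 5.29-fold higher (3.35–8.26) and *lcp2a*, the adaptor SLP-76, 4.32-fold (2.13–8.47). *plcg1*, which makes the calcium signal, was 2.83-fold higher (2.15–3.71). Brakes of the pathway were among the high genes: *ubash3ba* at 6.70-fold (4.63–9.66) and the phosphatase gene *ptpn22* at 2.997-fold (1.14–7.10) from 8 UMIs. The 3 members under 2-fold were *RASGRP1* at 0.981-fold (0.472–1.85), *malt1* at 0.819-fold (0.317–1.79) and *bcl10*, with 1 against 14 UMIs, at 0.535-fold (0.0127–3.52). *malt1* and *bcl10* act on the way to NF-kB.

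Transcription factors of T cells were high as well against all other nuclei. Of 29 measured features, 17 were higher by 2-fold or more and 2 lower, with a median log2 fold of 1.70 and a summed level of 15001 against 4754 CPM, a ratio of 3.16 (3.01–3.31). The ratio was smaller against cluster 5, at 1.76 (1.63–1.91), cluster 8, at 2.50 (2.24–2.79), and cluster 9, at 1.65 (1.42–1.92). Against cluster 9, 8 of 21 members were higher and 2 lower, where 22.5% and 20.1% of all features were. Gene folds below are against all other nuclei. *tcf7* and *ets1*, factors of T cell development, were 7.04-fold (5.82–8.51) and 8.11-fold higher (6.68–9.84), in 86 and 98 nuclei. Of the TOX family, *tox* was 7.49-fold (4.82–11.6), *tox2* 7.64-fold (6.41–9.10) and *TOX2* 8.99-fold higher (7.34–11.0), and the last pair may be copies that share reads. *satb1b*, a chromatin organiser of T cells, was 6.79-fold higher (3.96–11.6). *runx3*, a factor of cytotoxic T cells and other leukocytes, was 4.88-fold higher (4.35–5.48) and had a UMI in 81.2% of the nuclei, against 17.5% of epithelial nuclei.

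Factors that mark different kinds of helper T cell were each detected in few nuclei. *foxp3b*, a relative of the factor of regulatory T cells, had 22 UMIs in 13 nuclei against 8 UMIs in all other nuclei, 20.6-fold higher (8.83–53.5), and was in 0.371% of epithelial nuclei. *tbx21*, the T-bet gene of type 1 T cells and NK cells, had 33 UMIs in 26 nuclei (7.49-fold, 4.48–12.5). *gata3*, the factor of type 2 T cells, which epithelium also uses, had 56 UMIs in 32 nuclei (2.85-fold, 2.06–3.91). *rorc* had 11 UMIs in 8 nuclei (7.49-fold, 2.95–19.1). By contrast, *rorcb* was at 0.687-fold (0.463–0.988) and *rorca* at 0 of 52 UMIs, at least 2.31-fold lower against the floor. Of these 4 genes (*foxp3b*, *tbx21*, *gata3*, *rorc*), 114 nuclei had a UMI of none, 55 of 1, 12 of 2 and 0 of 3 or more. *tbx21* and *gata3* met in 7 nuclei, where the product of their shares gives 4.60, and *foxp3b* met *tbx21* in 1 nucleus (product 1.87) and *gata3* in 2 (product 2.30). These counts do not show separate sets of nuclei. At this depth a gene without a UMI may still be expressed.

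Not every T cell factor followed. *lef1*, a partner of *tcf7*, was at 0.459-fold (0.164–1.03) from 6 UMIs. *zbtb7b*, the factor of helper T cells, was at 0.566-fold (0.345–0.882), and *roraa* at 1.45-fold (1.28–1.63). Of the cytotoxic list, 5 of 21 symbols were matched and 3 features measured. Only *tbx21* of those 3 was at least 2-fold higher, *tnfsf10* was at 2 against 45 UMIs, and *eomesa*, *eomesb* and *PRF1*, the perforin gene, had 0 UMIs in the cluster. Granzyme genes were not matched by symbol and are not analysed here. Of the checkpoint list, 1 feature was measured, *vsir*, the inhibitory receptor VISTA, at 5.45-fold (3.68–8.02). Its level of 286 CPM was close to the 322 CPM of cluster 9, from 7 UMIs, and the 274 CPM of cluster 5. The ratios were 0.889 (0.400–2.33) and 1.05 (0.633–1.77), while cluster 8 was at 48.5 CPM.

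**Figure D2:**
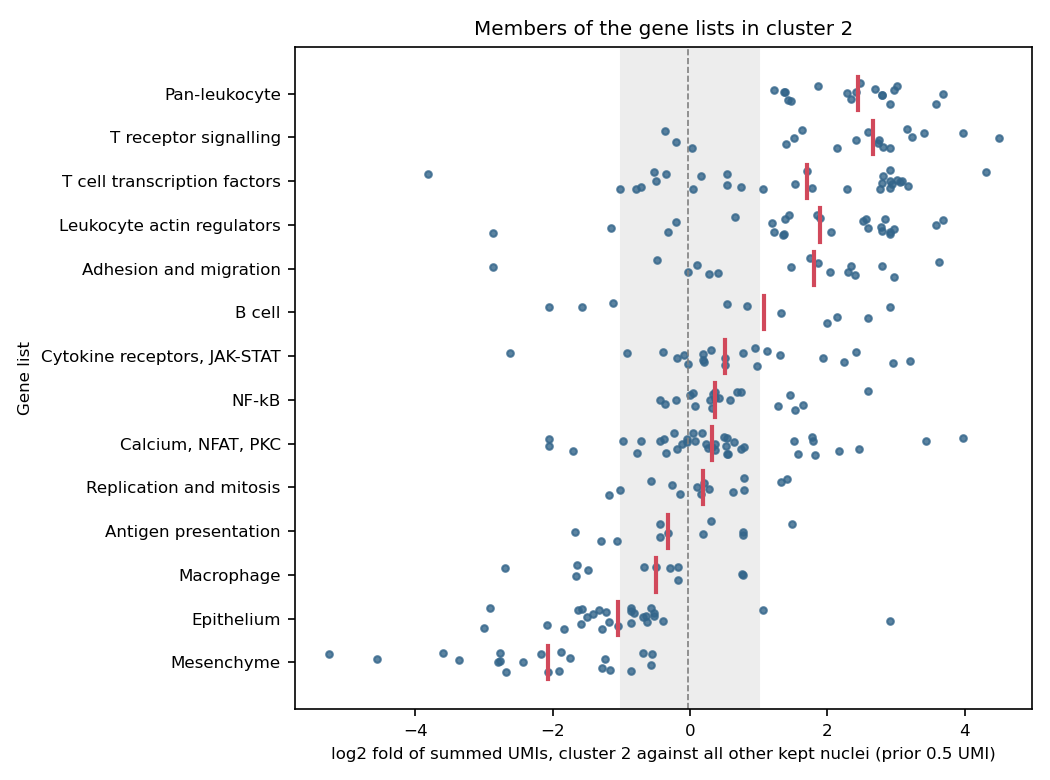
Each point is a measured member of a gene list, placed by its log2 fold between cluster 2 and all other kept nuclei (prior 0.5 UMI per sum). Red bars are list medians, the dashed line is the median over all features (−0.03) and the grey band covers folds under 2; the pan-leukocyte and T receptor medians lie at 2.44 and 2.66, the mesenchyme median at −2.07.

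Genes shared by all white blood cells set the cluster apart from the tissue around it. All 18 measured members of the pan-leukocyte list were at least 2-fold higher, with a median log2 fold of 2.44 and a summed level of 7423 against 1399 CPM, a ratio of 5.31 (4.93–5.71). *ptprc*, which codes for the leukocyte phosphatase CD45, had 19 against 22 UMIs (6.47-fold, 3.31–12.5). *DOCK2*, the Rac activator of migrating leukocytes, had a UMI in 102 nuclei and was 7.84-fold higher (6.48–9.48). *ikzf1*, the Ikaros factor of blood cells, was 6.91-fold higher (4.77–9.99), and *itgb2*, the leukocyte integrin subunit, 5.05-fold (3.04–8.28).

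The list of actin regulators shares 8 measured genes with that list. Of its 25 measured members, 20 were at least 2-fold higher and 2 lower, with a median log2 fold of 1.88 and a level ratio of 3.09 (2.91–3.27). Against cluster 5, 2 of 24 members were higher and 1 lower, where 16.6% and 14.9% of all features were, with a ratio of 1.28 (1.18–1.41). The ratio was 1.76 (1.57–1.99) against cluster 8 and 1.43 (1.21–1.71) against cluster 9. The folds that follow are against all other nuclei. *ARHGAP9* was 7.49-fold higher (5.43–10.3), *dock10* 6.87-fold (4.84–9.73) and *msna*, the membrane linker moesin, 5.89-fold (4.12–8.40). *ezrb*, the ezrin relative of moesin, stood at 0.43-fold from 8 against 141 UMIs, and *EVL* had 0 of 27 UMIs.

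Against all other nuclei, receptors for chemokines and the switches of integrin adhesion were higher too. Of 16 measured members of the adhesion and migration list, 10 were at least 2-fold higher and 1 lower, with a level ratio of 2.43 (2.14–2.75). The list was at 1963 CPM (1757–2187) in cluster 2 and 2063 CPM (1540.5–2705) in cluster 10, so the order of these clusters is not settled. Cluster 5 was at 1576 CPM (1329–1855). Against cluster 5, 3 of 13 members were higher and 2 lower, with a ratio of 1.30 (1.06–1.60). The ratio was 3.19 (2.25–4.63) against cluster 8 and 1.65 (1.08–2.65) against cluster 9. Gene folds below are against all other nuclei. *ccr10*, in mammals a homing receptor of skin and mucosal lymphocytes, had 25 UMIs in 20 nuclei against 15 UMIs elsewhere, 12.5-fold higher (6.33–25.5). *ccr7*, which guides lymphocytes and dendritic cells to lymphoid tissue in mammals, was 6.92-fold higher (3.80–12.5). *RASGRP2*, which activates Rap1 ahead of integrins, was 7.80-fold higher (5.57–10.9) and the Rap1 effector gene *RASSF5* 4.06-fold (2.42–6.67). *ccr9b*, a receptor for the CCL25 chemokines in mammals, had 6 against 14 UMIs (3.21-fold). The ligand genes were low in the cluster itself, with *ccl25a* at 7 of 326 UMIs (0.164-fold, 0.0656–0.343) and *ccl25b* at 0.278-fold (0.190–0.394).

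Cytokine receptor genes were high in part, and the shares of calcium and NF-kB genes at least 2-fold higher were near the background. Of 22 members of the cytokine receptor and JAK-STAT list, 7 were at least 2-fold higher and 1 lower, against backgrounds of 15.7% and 20.3%. The median log2 fold was 0.51. After *jak3*, the highest were *stat4*, which carries the interleukin 12 signal, at 7.79-fold (4.32–14.1), and *stat5a*, which carries the interleukin 2 family signal, at 4.72-fold (3.64–6.11). The paralogues of Janus kinase 2 differed, with *jak2a* at 3.81-fold (2.37–6.01) and *jak2b* at 0.956-fold (0.551–1.57). *ifngr1*, an interferon gamma receptor gene, had 1 against 69 UMIs (0.109-fold, 0.00271–0.625). Of 39 calcium, NFAT and protein kinase C members, 9 were higher and 3 lower, with a median log2 fold of 0.31, so the higher share is near the background. *PRKCB* (1 of many), the protein kinase C of B cells and other leukocytes, was 5.47-fold higher (4.20–7.11). Of 20 NF-kB members, 5 were higher and 0 lower, with a median log2 fold of 0.37, so this higher share is also near the background. Among the 5 were *traf2b* at 3.08-fold (1.76–5.22), though 1.85-fold in suffix 2 alone, and *nfkb1* at 2.73-fold (1.84–3.97). In both lists the share of lower members was under the background of 20.3%. Against all other nuclei the level ratio was 1.73 (1.54–1.94) for NF-kB, 1.62 (1.53–1.71) for calcium and 2.19 (1.99–2.40) for the cytokine list. For calcium it was 1.31 (1.19–1.45), 1.06 (0.958–1.18) and 1.16 (0.984–1.39) against clusters 5, 8 and 9. Against cluster 5 the level ratio was 0.866 (0.732–1.03) for NF-kB and 1.06 (0.917–1.23) for the cytokine list. Against cluster 8 these were 1.15 (0.927–1.43) and 1.67 (1.37–2.06), and against cluster 9 1.07 (0.778–1.52) and 1.83 (1.31–2.63).

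Markers of other blood cells were low for macrophages and mixed for the other lists. Of 11 measured macrophage members, 0 were at least 2-fold higher and 4 lower, and their summed level was 537 CPM against 1084 in other nuclei and 278 to 6018 over the other clusters. The defining macrophage genes *csf1ra*, *spi1b* and *mrc1b* (1 of many) had 3, 4 and 2 UMIs, and *irf8* had 0. Of 5 granulocyte members, 0 were higher and 1, *mpx*, was lower, at 4 against 133 UMIs. The granulocyte level ratio was 0.983 (0.704–1.34). The dendritic list had 4 of 8 members higher and 1 lower, with a level of 471 against 166 CPM, a ratio of 2.83 (2.16–3.69). Of the 4, 3 are genes that T cells or plasma cells also use, *ccr7*, *irf4a* at 9.16-fold (3.45–24.998) and *irf4b*. The plasma cell list had the same *irf4* pair as its 2 higher members of 5, and a level ratio of 1.70 (1.23–2.31). The list of red cells and thrombocytes had 3 of 6 higher, all from at most 9 UMIs, and a level ratio of 1.51 (1.06–2.09). The part of such cells in the results was not tested.

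Genes of the surrounding tissue were mostly low but not at 0. The epithelium list had 14 of 27 members at least 2-fold lower and 2 higher, with a level ratio of 0.410 (0.392–0.429). *krt5*, the basal keratin gene, stood at 3801 against 11387 CPM, 0.334-fold (0.308–0.361), and still had a UMI in 79.0% of the nuclei of cluster 2, against 97.2% of epithelial nuclei. The envelope gene *evpla* was 8.54-fold lower, with 7 UMIs against 448, but at 0.504-fold in the new cluster, described below, that held most of cluster 2. The 2 higher members were *itga6a*, with 10 against 10 UMIs at 7.49-fold, and *krt18b*, at 2.07-fold (1.49–2.83). *krt18b* was 0.940-fold in suffix 1 and 4.50-fold in suffix 2. Whether *krt5* UMIs here are free RNA was not tested.

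Of 21 mesenchyme members 17 were lower and 0 higher, and 6 had 0 UMIs in the cluster. *col1a1a*, the main fibrillar collagen chain gene, was 7.44-fold lower, with 7 against 390 UMIs. Taste bud genes had 5 of 6 members lower, with 4 at 0 UMIs, and goblet genes 3 of 4, with 2 at 0. Pigment genes had 5 of 9 lower, with 3 at 0, and nerve genes 2 of 5, with 2 at 0. Level ratios were 0.309 (0.192–0.473), 0.240 (0.0769–0.572), 0.308 (0.162–0.535) and 1.23 (0.921–1.61), so nerve genes were not low as a sum. These counts depend on features at 0 UMIs. With zeros set at the floor, the median log2 folds of these lists were −0.55, 0.23, −0.15 and 0.45. The endothelial list had 2 of 7 higher and 3 lower. The pair is *fli1a* and *fli1b*, an ETS factor that blood cells also use, with *fli1b* at 7.91-fold (6.02–10.4). Other low genes were *scara5*, *postna*, *ptgdsb.1*, *pcdh7b*, *notch3* and *pim1*, between 0.138-fold and 0.254-fold.

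Genes of antigen presentation and cell division stood near their level in other nuclei. Of 11 presentation members, 1 was higher and 3 lower, with a level ratio of 0.838 (0.683–1.02). The other clusters differed widely, from 226 to 2440 CPM, with cluster 2 at 668 CPM. On the members measured in each pair, the ratio was 0.243 (0.188–0.313) against cluster 5 and 0.453 (0.327–0.630) against cluster 8. Against cluster 9, which had 2 UMIs, it was 4.99 (1.34–41.9). *cd74a*, the invariant chain gene of class II presentation, was at 0.732-fold (0.550–0.957). Of 14 replication and mitosis members, 2 were higher and 2 lower, with a level ratio of 0.972 (0.754–1.24). *cenpf*, a kinetochore gene, had 11 against 32 UMIs, and *pcna*, the replication clamp, 4 against 68.

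Some of the most abundant symbols carried little identity. *ptchd4* had a UMI in all 181 nuclei and stood at 1.03-fold (0.983–1.08), and *ubald1b* was also in all 181 at 0.769-fold. Among the 15 symbols with the highest CPM, those at least 2-fold higher, apart from *wdr73*, were *runx3*, *gnai2a*, *celf2*, *jade2* and *erfl3*. *gnai2a*, the G protein subunit behind chemokine receptors, was 3.75-fold higher (3.35–4.19). *celf2*, an RNA-binding protein gene that is active in T cells, was 3.55-fold higher (3.21–3.92), and had a UMI in 81.2% of nuclei. *jade2*, a chromatin gene, was 2.38-fold higher (2.17–2.62). *wdr73* is left for the closing section because 930 of its 1024 UMIs lay in 4 nuclei.

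**Figure D3:**
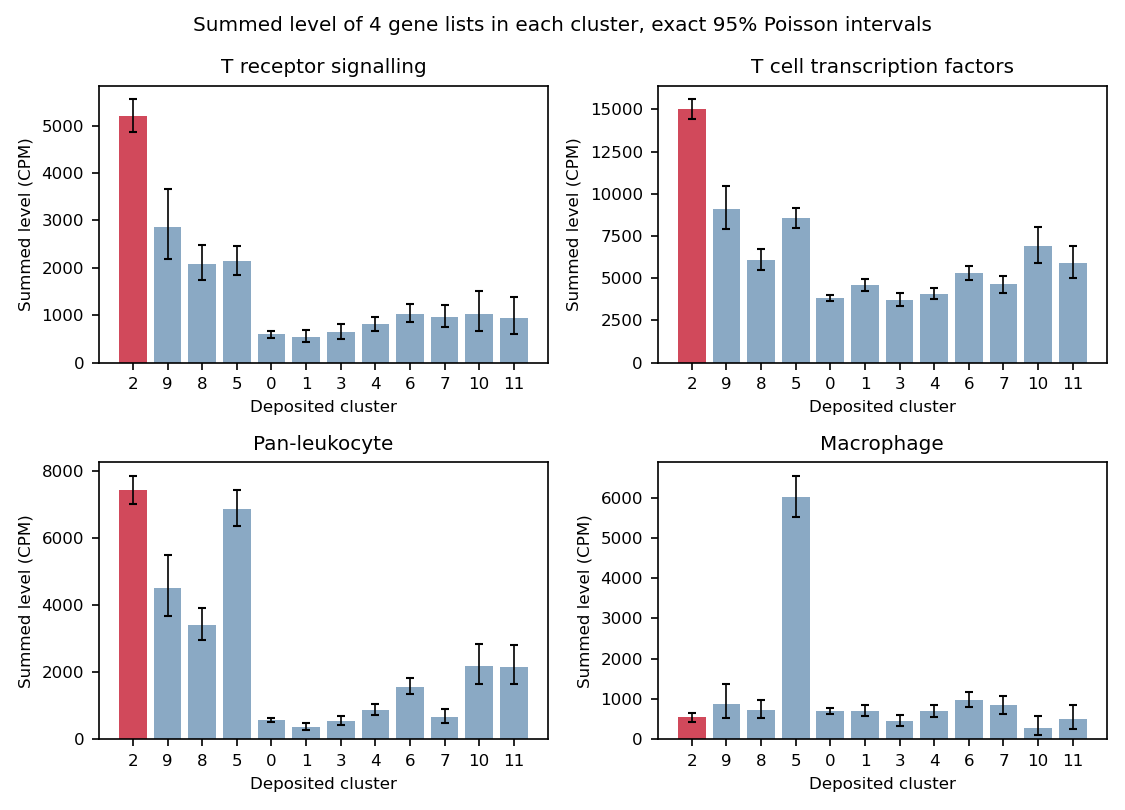
Bars show the summed level in CPM of 4 gene lists in each of the 12 deposited clusters, with exact 95% Poisson intervals; cluster 2 is red. Cluster 2 is highest for T receptor signalling (5203 CPM) and T cell transcription factors (15001 CPM), stands near cluster 5 for pan-leukocyte genes (7423 and 6860 CPM), and is at 537 CPM for macrophage genes, where cluster 5 is at 6018 CPM.

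Across the 12 clusters, the T receptor list was at 5203 CPM (4864–5560) in cluster 2, 2854 CPM in cluster 9, 2144 in cluster 5 and 2088 in cluster 8. The others ranged from 547 to 1035 CPM. The order of clusters 9, 5 and 8 is not settled beyond their counting intervals, which overlap.

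Cluster 5, named Pigmented, held 98 nuclei and was close to cluster 2 in genes common to leukocytes. Of 5330 features measured in this pair, 16.6% were at least 2-fold higher in cluster 2 and 14.9% lower. Of 18 pan-leukocyte members, 3 were higher and 3 lower, with a level ratio of 1.08 (0.982–1.19), and *runx3* was at 0.966-fold. The T receptor list had 8 of 17 members higher and 0 lower, with a level ratio of 2.42 (2.07–2.84). *coro1a* was 10.2-fold higher (3.31–50.9), *cyth1b* 6.54-fold (2.40–24.99), *prkcq* 5.92-fold (2.74–15.2) and *agap2* 5.11-fold (2.47–12.3). *FAR2*, *INPP5A* and *slc6a9* followed between 4.69-fold and 4.98-fold.

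In the other direction, macrophage and pigment genes separated the pair. Of 10 macrophage members, 9 were at least 2-fold lower in cluster 2, with a level ratio of 0.0864 (0.0681–0.109). The scavenger receptor gene *stab1* had 12 UMIs in cluster 2 and 237 in cluster 5, 36.2-fold lower (20.3–71.1). *mrc1b* (1 of many), a mannose receptor gene, had 2 against 92 UMIs, a ratio of 0.0119 (0.00141–0.0441). *mitfa*, the melanocyte factor, had 2 against 52 UMIs, a ratio of 0.0210 (0.00247–0.0797), and *slc43a2a* 2 against 87. The efferocytosis receptor gene *AXL* had 3 against 50 UMIs. The B cell list was also lower in cluster 2, at 0.454 (0.317–0.649) of the level of cluster 5.

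Cluster 8, also named Immune, held 50 nuclei and differed from cluster 2 in *prox1a* and *foxa3*. Of 4955 features, 18.3% were at least 2-fold higher in cluster 2 and 14.8% lower. *prox1a*, a homeobox factor gene, had 2 UMIs in cluster 2 and 69 in cluster 8, a ratio of 0.0107 (0.00127–0.0401). *foxa3*, a goblet cell factor gene in zebrafish and mammals, had 0 against 20 UMIs, at least 18.1-fold lower. *fer1l6* had 3 against 79 UMIs, *MAPK8IP1*, a scaffold of the JNK pathway, 2 against 36, and *plekha7a*, a junction protein gene, 15 against 89.

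Leukocyte genes were higher in cluster 2 than in cluster 8. The T receptor list had 12 of 17 members higher and 1 lower, with a level ratio of 2.53 (2.10–3.07), and the pan-leukocyte list 9 of 17 higher and 0 lower, with a ratio of 2.18 (1.88–2.54). *RASGRP2* had 75 against 2 UMIs (13.8-fold, 3.70–116), *carmil2* 63 against 2 (11.6-fold, 3.09–98.0) and *ppp1r16b* 151 against 5 (11.1-fold, 4.67–34.8). *klf12b*, a Krüppel-like factor gene, had 67 against 2 and *zbtb4* 46 against 1. *ndst3*, a heparan sulfate enzyme gene, had 47 against 0, at least 5.78-fold higher.

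Cluster 9, the smallest Immune cluster, was the nearest to cluster 2 in the 5 markers. It held 35 nuclei with 21723 UMIs and a median of 554, so a floor of 3 UMIs there equals 138 CPM and few genes can be resolved. Of 4191 features, 22.5% were at least 2-fold higher in cluster 2 and 20.1% lower. Of the 5 markers only *ppp1r16b* passed 2-fold, at 6.52-fold (2.19–32.0), while *prkcq*, *skap1*, *jak3* and *BCL11B* lay between 1.31-fold and 1.64-fold with intervals that include 1. The T receptor list had 3 of 15 members higher and 1 lower, both shares below the background, with a level ratio of 1.88 (1.44–2.49).

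Some genes of cluster 2 had no UMI in cluster 9. *PRKD3* (1 of many) had 152 against 0 UMIs, at least 6.57-fold higher. *carmil2* with 63, *cbl*, a ubiquitin ligase gene that restrains receptor signalling, with 69, and *wipf1a*, the partner of the Wiskott-Aldrich protein, with 54 against 0 were at least 2.72-fold, 2.98-fold and 2.33-fold higher. Of the 8 named genes with the lowest folds in cluster 2, 3 are described here. *nkd2a*, an inhibitor of Wnt signalling, had 12 against 22 UMIs, 14.1-fold lower (6.70–31.4), and the Wnt ligand gene *wnt7bb* 22 against 18, 6.31-fold lower (3.19–12.3). Both were also read in the epithelial clusters 0, 1 and 7, with *nkd2a* at 321 to 439 CPM and *wnt7bb* at 247 to 458 CPM. *kremen1*, a receptor for Wnt inhibitors, was 4.91-fold lower (2.70–8.74). The epithelium list was at 0.743 (0.662–0.835) and the mesenchyme list at 0.348 of the level in cluster 9. The deposited score named cyto had a median of 0.175 in cluster 2 and 0.484 in cluster 9. The part of epithelial RNA in this pair was not tested.

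Cluster 2 held nuclei of both suffix sets in similar shares. Cluster 2 made up 14.7% (12.3–17.5) of suffix 1, with 111 of 754 nuclei, and 12.9% (10.2–16.03) of suffix 2, with 70 of 542. Median depth in the cluster was 701 UMIs in suffix 1 and 767.5 in suffix 2. Of the 46 genes plotted (markers, highest and lowest folds and highest CPM), 45 lay on the same side of 1. Most were chosen by their values in both sets together, so this count is no test of agreement. *tbc1d10c* was 22.6-fold higher in suffix 1 and 8.17-fold in suffix 2, and *znf536* 9.04-fold and 20.8-fold. *wdr73*, at 0.717-fold and 7.05-fold, was the plotted gene on opposite sides. The list member *krt18b*, which is not plotted, was also on opposite sides, at 0.940-fold and 4.50-fold.

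**Figure D4:**
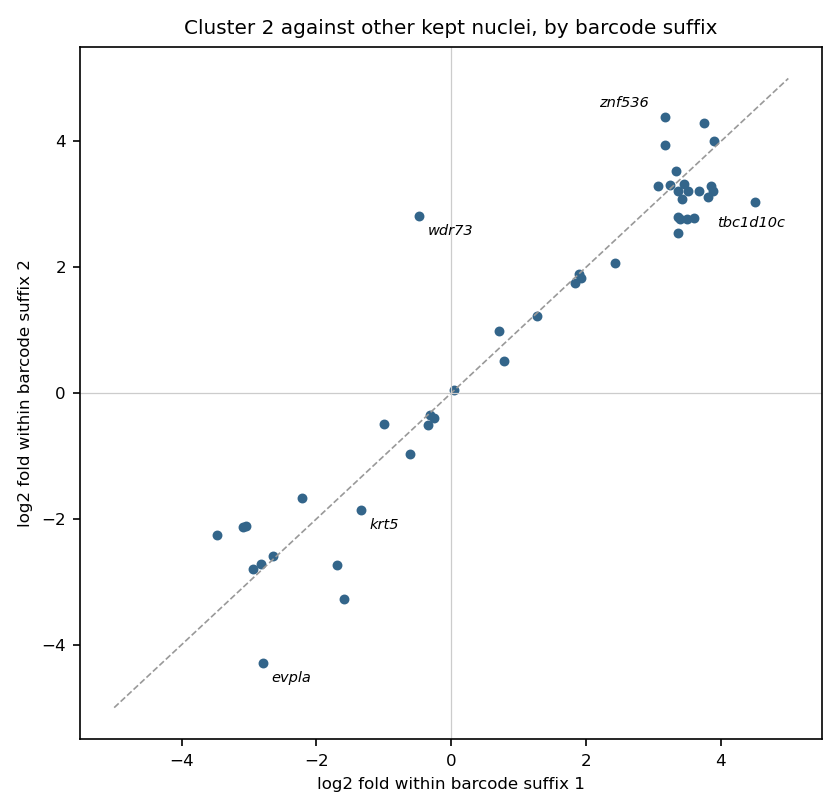
Each point is 1 of 46 genes (markers, highest and lowest folds, highest CPM), with its log2 fold between cluster 2 and other kept nuclei within barcode suffix 1 (x axis) and within suffix 2 (y axis); the dashed line marks equal folds. 45 genes lie on the same side of 0 in both sets, and *wdr73* does not. Most genes were chosen by their values in both sets together.

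Cluster 2 also held a small set of nuclei with B cell genes. The B cell list had 10 measured features, of which 5 were at least 2-fold higher and 3 lower than in other nuclei. The level ratio was 2.08 (1.56–2.74). The list was not highest in cluster 2, at 394 CPM, against 799 in cluster 5, 550 in cluster 8 and 535 in cluster 6. In the remaining clusters it ranged from 39.1 to 317 CPM. Against cluster 8, 2 of 5 members were higher and 3 lower, with a ratio of 0.784 (0.474–1.33). *pax5* had 16 UMIs in 10 nuclei (5.99-fold, 2.90–12.2), and *EBF1* (1 of many), ENSMZEG00005008525, 14 UMIs in 8 nuclei (7.49-fold, 3.31–16.95). *cd79a*, a chain of the B cell receptor complex, had 4 UMIs and *blk*, a B cell kinase gene, 5. Together, 20 nuclei had a UMI of at least 1 of these 4 genes, 11 in suffix 1 and 9 in suffix 2. The choice of these 4 genes, and the comparison that follows, were made after values were seen.

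When all kept nuclei were clustered anew, cluster 2 split. Of 16 new clusters, the one with most of cluster 2 held 198 nuclei, among them 140 of cluster 2 (77.3% of it), together with 29 of the 35 nuclei of cluster 9. It also held 19 nuclei of the Epithelial class, 5 of cluster 8 and 2 of cluster 5. Another new cluster, of 37 nuclei in all, held 20 of cluster 2 (11.0%), 12 from suffix 1 and 8 from suffix 2. These 20 nuclei held all 16 *pax5* UMIs of cluster 2 and 13 of the 20 nuclei with B cell genes. Their median depth of 709.5 UMIs was close to the 711.5 of the 140. The same genes built the new clusters, so the values below describe the split.

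In the smaller group the B cell list was at 1792 CPM and in the larger at 176 CPM, 10.2-fold apart (5.80–18.2). *pax5* was at 16 against 0 UMIs, at least 34.1-fold higher, and *EBF1* (ENSMZEG00005008525) at 10 against 2, a ratio of 31.9 (6.81–300.0). *blnk*, the B cell linker, had 6 against 3 UMIs (12.8-fold, 2.73–79.0). Not every B cell gene followed the split. *cd79a* had 2 UMIs in each group (6.39-fold, 0.463–88.1), and *blk* had 0 in the smaller group against 5 in the larger. *mef2cb*, a factor used by B cells, was 15.5-fold higher (6.12–44.3), *vav2* 11.0-fold (6.73–18.1) and *TCF4*, the E2-2 factor, 5.88-fold (4.52–7.63). *BCL11A*, a factor of early B cells, was 5.50-fold (3.44–8.74), *PRKCB* (1 of many) 5.30-fold (3.47–8.06) and *plcg2*, the phospholipase of the B cell receptor, 4.61-fold higher (2.08–9.96). *raver2* and *tnk2b* also led, at 44.7-fold and 22.4-fold.

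As a sum, T cell genes were lower in the smaller group but far from 0. The T receptor list was at 3891 CPM there and 5938 CPM in the larger group, a ratio of 0.655 (0.510–0.831). The lower of these levels, from 76 UMIs, stood beside 2854 CPM (2188–3659) in cluster 9, from 62 UMIs. At these counts the order of the smaller group and cluster 9 is not settled. *zap70*, with 3 against 12 UMIs, was at 1.60 (0.289–5.92), and *foxp3b*, with 4 against 16, at 1.60 (0.389–4.95). In the smaller group the UMIs of each gene lay in 1 nucleus, so neither ratio describes the group. *BCL11B* was at 0.355 (0.0942–0.949), *FYN* (1 of many) at 0.473 (0.254–0.814), *tox2* at 0.517 (0.305–0.825) and *RASGRP2* at 0.304 (0.0611–0.931). *lck* and *itk* had 2 UMIs each, against 36 and 31. *runx3* at 1.00, *ikzf1* at 1.02, *ets1* at 0.913 and *tcf7* at 0.902 stood at like levels in both groups, with intervals that include 1. Of the other markers, *jak3* was at 1.38, *prkcq* at 0.799, *skap1* at 0.559 (0.218–1.21) and *ppp1r16b* at 0.553 (0.269–1.02), while the 5 markers summed were at 0.687 (0.489–0.942). Nuclei led by T cell genes and a smaller set with B cell genes, which also carried T cell genes, stood together in cluster 2.

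**Figure D5:**
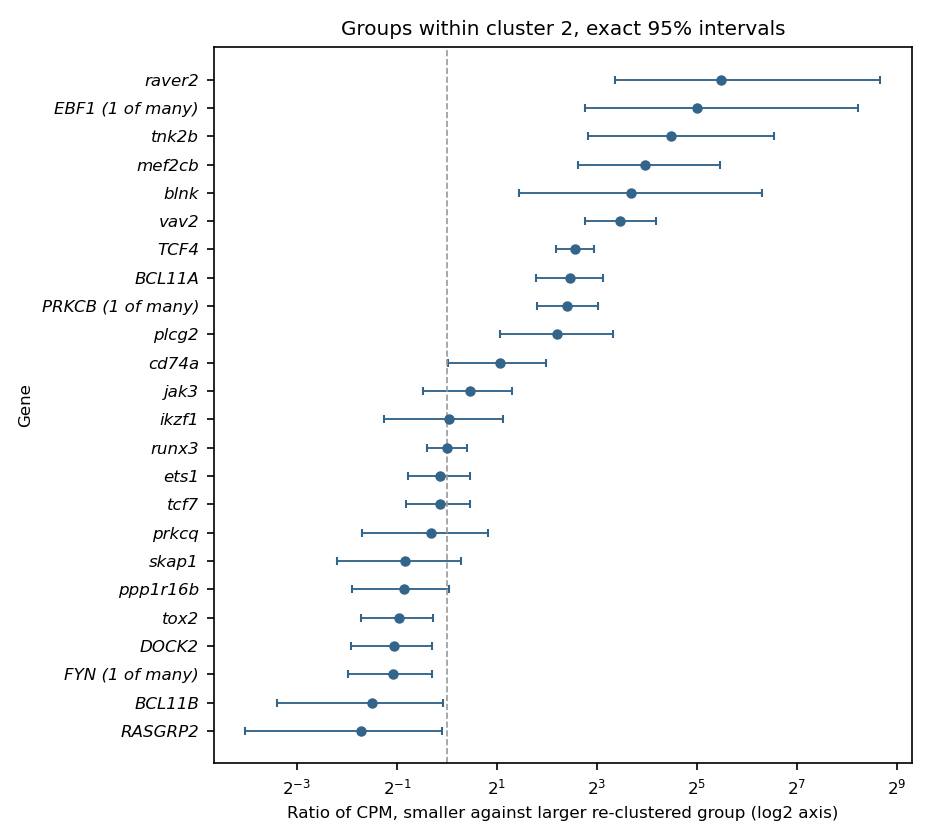
Ratio of CPM between the 20 nuclei of cluster 2 in the smaller re-clustered group and the 140 in the larger, on a log2 axis, with exact 95% intervals; the dashed line marks a ratio of 1. B cell genes such as *EBF1* and *blnk* lie to the right, *runx3* and *ikzf1* near 1, and *BCL11B* and *RASGRP2* to the left; *pax5*, at 16 against 0 UMIs, is not drawn.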

How the data were processed

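Single-nucleus RNA-seq came from 2 oral lamina samples, upper and lower jaw. The deposited matrix holds raw UMI counts; the headers of the authors' files name Cell Ranger 3.1.0, and the genome build is not given in the sources used here. Clusters, class names, the kept mark and a score named cyto were deposited by the authors without a rule; the kept mark equals more than 300 and fewer than 2500 genes. UMIs were summed per cluster. Folds are ratios of CPM with exact conditional intervals, and list counts use a prior of 0.5 UMI and features with at least 10 UMIs. With 1 pooled sample, no p-value was computed. Depth sets the precision: 167586 UMIs in cluster 2 against 1255454 in other kept nuclei. Doublets were left in, with a Scrublet alternative. 1 barcode sequence occurs with both suffixes, 0 of them in cluster 2.

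Named genes were the 5 markers, the 20 symbols with the highest and 10 with the lowest fold, 8 highest and 8 lowest per compared cluster, up to 4 per list, list-defining genes at 0 UMIs and the 15 symbols with the highest CPM; not all are printed. Other genes, including other list members given with values, were chosen after their values were seen. Members and all 26 lists were chosen with earlier results of these data known. Symbols matched with or without paralogue suffix; features named 1 of many are uncertain. Alternatives were TMM (edgeR 4.0.16, R 4.3.3), a mean over nuclei, total without ribosomal features, nuclei without the lowest 20% or highest 5% of UMIs, each suffix, equal cluster weights, other minimums and priors, and own Leiden clusters. Functions were tested on simulated data. Tools were scanpy 1.11.5, scipy 1.17.1, leidenalg 0.10.2, matplotlib 3.10.9, pandas 2.3.3 and numpy 2.4.6 under Python 3.11.15. Sequences were not analysed here. 1 list member is counted but not reported here.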

Additional observations from a re-analysis of the deposited data

How the results depend on the processing

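No paired analysis was possible because both jaws form 1 pooled sample without replicates. The T receptor list against other nuclei (5.67) was 5.04 with TMM factors and 4.19 with the other clusters weighted equally. The pan-leukocyte list (5.31) was 4.71 with TMM factors, 4.75 in the own Leiden cluster, 3.45 with equal weights, 5.90 in suffix 1 and 4.51 in suffix 2. The T receptor list against cluster 8 (2.53) was 1.97 in suffix 2. Features at least 2-fold higher numbered 1924, with 877 at a minimum of 30 UMIs and 5826 at 1 UMI; features lower numbered 2488, with 1325 at 30 UMIs. At a prior of 2 UMIs 2777 were higher and 770 lower. The share of nuclei with a marker (59.3%) was 78.2% at 800 UMIs and 82.3% without thinning. Single genes crossed 1 as follows. *cybb* (1.87) was 0.559 and *pax5* (5.99) 0 in the own cluster, which held 6 of the 20 nuclei with B cell genes; *krt18b* (2.07) was 0.940 in suffix 1 and *mbpb* 0.998 as a mean over nuclei. *wdr73* (4.46) was 0.419 without 4 nuclei, 0.245 in the own cluster and 0.717 in suffix 1. In the own cluster *evpla* (0.117) was 0.504, *pcdh7b* (0.161) 0.512, *EBF1* (7.49) 1.15 and *cenpf* (2.58) 1.12. The own cluster also held 19 nuclei of the Epithelial class, whose part in these values was not tested. Other causes were not tested either. Apart from *wdr73*, which is left out of this count, 72 named genes were past 2-fold. Of these, 60 stayed past it under every alternative, and 790 of 792 values kept their direction. Most were chosen by their values in these same nuclei, so these counts are no test of the folds.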

Other observations

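*wdr73*, a gene for a WD repeat protein, had a high CPM in cluster 2 through very few nuclei. It had 1024 UMIs there, of which 930 lay in 4 nuclei, all of suffix 2, with 286, 152, 258 and 234 UMIs each. These were 17.3%, 21.3%, 34.2% and 29.4% of the UMIs of those nuclei. Its fold of 4.46 (4.13–4.82) became 0.419 without the 4 nuclei and 1.70 without such nuclei in any cluster. Nuclei with at least 100 such UMIs occurred elsewhere, 1 in cluster 0 with 509 UMIs and 2 in cluster 6 with up to 549. *cacna1ha*, a calcium channel gene, had 121 UMIs in 6 nuclei of cluster 2, also chosen after its values were seen. UMIs of the markers also occurred in barcodes outside the kept mark. The 44 with at most 300 genes had 3 UMIs of *prkcq* and 4 of *ppp1r16b* among 17822, at or near the floor of 3 UMIs. The 41 with at least 2500 genes had *ppp1r16b* at 57.7 CPM and *BCL11B* at 54.7 CPM. Neither was above its level in all other kept nuclei. Scrublet called 18 of 1296 nuclei as doublets, 3 of them in cluster 2.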
